A study of Mus musculus with 9 samples.

Results

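The small leucine-rich proteoglycans are secreted matrix proteins with a curved core of leucine-rich repeats, most of which bind collagen fibrils. Class I holds decorin (Dcn), biglycan (Bgn) and asporin (Aspn), class II holds lumican (Lum), fibromodulin (Fmod), PRELP (Prelp) and osteomodulin (Omd), and class III holds osteoglycin (Ogn), also called mimecan. In tendon, cartilage, bone and synovium they limit the lateral growth of collagen fibrils, and decorin and biglycan carry chondroitin or dermatan sulfate chains and bind growth factors of the TGF-β family. The members were the 8 gene symbols just named, out of 54534 entries in the gene list shared by the libraries, and every member was found there. They were listed by name and not by a cut on a measured value, but earlier results of these data were known when they were chosen.

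Transcripts were counted in single cells from knees of Gdf5-Cre;Tom;Pdgfrα-H2BGFP mice, labelled as 11 to 12 weeks old, in steady state or 6 days after a joint surface injury, in which the right knee was opened and a full-thickness scratch made in the cartilage of the trochlear groove. Tom+ cells carry the tdTomato label switched on by Gdf5-Cre, active in the embryonic joint interzone, and Tom-GFP+ cells lack it but carry a nuclear GFP driven by the Pdgfrα promoter, so stromal cells with neither label were not collected. Both lineages in both states therefore share the same 3 transgenes, and the steady-state mice were not operated on, so surgery and cartilage damage cannot be told apart. By the study's text the steady-state mice were 11 weeks old and the injured ones 12 weeks old, so age follows the state as well. The design held 2 Tom+ steady state, 1 Tom-GFP+ steady state, 4 Tom+ injured and 2 Tom-GFP+ injured libraries, and n below counts libraries.

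Of 4788 cells kept, 1701 were sublining cells (Thy1 and Cd34 detected, no other gate passed), 717 were FLS-like, for fibroblast-like synoviocytes of the lining (Prg4 with at least 3 of 5 lining markers), 101 were Prg4+ Thy1-, 554 tenocyte-like, 80 chondrocyte-like, 110 osteoblast-like and 88 mural-like, named for smooth muscle cells and pericytes. Immune-like cells numbered 109 and served as the background for free RNA, and 1177 cells passed no gate. Genes kept out of the gates were higher in the gated class than in the other named classes for all 4 genes checked in each of the FLS-like, chondrocyte-like, osteoblast-like, mural-like and sublining classes and for all 3 in the tenocyte-like class. The tenocyte-like gate was the loosest, with 450 cells exactly at its limit of 2 markers and 1246 cells 1 marker short. Deposited libraries held 2866464 to 15033902 UMIs. The median per kept cell was 8050.5 to 8647 UMIs in the steady-state libraries and 12223 to 18567 UMIs in the injured ones, so depth followed the state. A gate counted a marker from 1 UMI, and an alternative gated cells thinned to 4000 UMIs each. At most 2 kept cell barcodes were shared by any pair of libraries. All 3 steady-state libraries and Tom+ injured 1 came with an older format of gene list than the other 5 injured libraries, a difference that partly follows the state.

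On the mouse genome (GRCm38, GENCODE vM21), 7 members lie in 3 neighbourhoods and Bgn lies alone on chromosome X. Aspn, Omd and Ogn follow each other on the forward strand of chromosome 13 (Aspn 49544443-49567565, Omd 49582462-49592822, Ogn 49608046-49624501), with 14896 bases between Aspn and Omd and 15223 between Omd and Ogn, and the related gene Ecm2 ends 11653 bases before Aspn. All 3 lie inside the span of Cenpp on the reverse strand, and Cenpp was counted at 0 to 11.0 CPM (UMIs scaled to a library total of 1000000) in sublining cells. Dcn and Lum are 46984 bases apart on the forward strand of chromosome 10, and Prelp and Fmod lie 115839 bases apart on opposite strands of chromosome 1. The 250 bases before the RefSeq start (GRCm38.p6) are given below for Omd and Ogn, the neighbours that were lower after injury, for Aspn, the neighbour that was not, and for Bgn, which rose. They lie at chr13:49582212-49582461, chr13:49607765-49608014, chr13:49544193-49544442 and chrX:73483351-73483600, all on the forward strand, and run 5′ to 3′. Capitals mark matches on either strand to any of 4 motifs, which are TATAAA (bound by TBP), TGANTCA (bound by AP-1), CCAAT (bound by NF-Y) and GGGCGG (bound by Sp1).

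Omd: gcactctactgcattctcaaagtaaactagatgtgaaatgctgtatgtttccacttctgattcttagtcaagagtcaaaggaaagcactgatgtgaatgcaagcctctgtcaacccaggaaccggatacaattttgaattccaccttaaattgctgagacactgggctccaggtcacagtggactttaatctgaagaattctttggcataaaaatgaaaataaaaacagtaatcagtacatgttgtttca
Ogn: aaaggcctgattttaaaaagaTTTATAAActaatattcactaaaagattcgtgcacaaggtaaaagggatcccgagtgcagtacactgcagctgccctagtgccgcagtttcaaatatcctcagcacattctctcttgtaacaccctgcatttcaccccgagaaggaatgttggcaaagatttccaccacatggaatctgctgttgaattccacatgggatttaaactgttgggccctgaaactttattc
Aspn: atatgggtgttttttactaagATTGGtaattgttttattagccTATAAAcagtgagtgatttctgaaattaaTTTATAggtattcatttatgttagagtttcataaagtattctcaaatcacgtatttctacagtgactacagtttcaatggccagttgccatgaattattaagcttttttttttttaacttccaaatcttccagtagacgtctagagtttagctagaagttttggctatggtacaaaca
Bgn: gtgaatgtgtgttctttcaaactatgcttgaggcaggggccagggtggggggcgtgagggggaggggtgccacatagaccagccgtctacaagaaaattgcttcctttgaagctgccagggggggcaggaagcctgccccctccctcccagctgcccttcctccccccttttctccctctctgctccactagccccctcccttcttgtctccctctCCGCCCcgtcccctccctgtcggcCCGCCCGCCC

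In these windows Omd held none of the 4 motifs, Ogn held 2 TATAAA matches on opposite strands that overlap each other, Aspn held 2 TATAAA matches and 1 CCAAT match, and Bgn held 3 GGGCGG matches, 2 of which overlap. The share of 32851 promoter windows with a match was 12.4% for TATAAA, 6.75% for TGANTCA, 33.8% for CCAAT and 32.7% for GGGCGG. The G and C content was 38.4% for Omd, 42.0% for Ogn, 30.0% for Aspn and 64.4% for Bgn. RefSeq windows were matched for 6 of the 8 members, leaving Dcn and Lum. The last bases of the full window, past the RefSeq start, were found in a GENCODE transcript for Omd, Aspn and Bgn but not for Ogn. The bases given for Ogn end at 49608014, short of its GENCODE start at 49608046, so the place of its matches relative to the start is less sure.

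In sublining cells of the Tom+ lineage, the class I member biglycan and the class II member lumican were higher 6 days after injury, and osteoglycin and osteomodulin were lower. Levels are given as CPM, in which the gene's UMIs in all cells of a class and library are scaled to counts per 1000000 UMIs, and fold changes come from edgeR on those sums with TMM scaling. Of 11746 genes tested, 9.63% passed an adjusted p of 0.05 in this comparison, against 4 of the 8 members. Decorin, the most counted member, was lower in all 4 injured libraries without passing the test, and asporin was higher in all 4 without passing. Statements below that groups did not overlap are descriptive, as the share of all genes without overlap was not counted. For 4 against 2 libraries, the smallest exact two-sided permutation p is 0.133.

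Bgn, which binds collagen and TGF-β, had 1797 and 2154 CPM in steady state and 5220, 6512, 5187 and 4138 CPM after injury. The groups did not overlap, and the means were 1975 ± 253 (SD, n = 2) and 5264 ± 972 (SD, n = 4). The log2 fold change was 1.37 ± 0.23 (SE; edgeR adjusted p = 0.00979). Lum, a keratan sulfate proteoglycan best known from cornea and tendon, was at 1596 and 1319 CPM in steady state and at 2415, 2906, 4325 and 3337 CPM after injury, again without overlap. Its log2 fold change was 1.12 ± 0.27 (edgeR adjusted p = 0.0329), and this call was lost when either Tom+ steady state library was left out (adjusted p = 0.153 without replicate 1 and 0.230 without replicate 2) and without Tom+ injured replicate 2 or 3 (adjusted p = 0.0541 and 0.0626). The Lum call was also lost with the replicate number as a block (0.81, adjusted p = 0.0706), with the gene list format as a block (0.64, adjusted p = 0.205) and over all stromal cells (0.36, adjusted p = 0.157).

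Ogn, a fibril-binding member named for its first isolation from bone, moved the other way, from 980 and 1412 CPM in steady state to 295, 322, 358 and 493 CPM after injury. Every injured library was below both steady-state libraries. The log2 change was -1.74 ± 0.25 (edgeR adjusted p = 0.00525). Omd, a small keratan sulfate protein of mineralised tissue, was rare in sublining cells, at 15.8 and 24.2 CPM in steady state and 5.87, 2.92, 2.04 and 4.86 CPM after injury. It rested on 188 UMIs in all 9 libraries together, with a log2 change of -2.33 ± 0.37 (edgeR adjusted p = 0.00726). In the 103 immune-like cells of the injured libraries Omd was at 1.07 CPM, from a single UMI.

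Dcn, which limits collagen fibril diameter and binds TGF-β, was at 15213 and 19042 CPM in steady state and at 4467, 6894, 10801 and 9553 CPM after injury. No injured library reached the steady-state levels. The log2 change was -1.14 ± 0.34 and missed the threshold (edgeR adjusted p = 0.0605), while DESeq2 gave -1.13 with an adjusted p of 0.0162. Dcn also passed as lower with the replicate number as a block (-1.68, adjusted p = 0.00734), with the gene list format as a block (-2.03, adjusted p = 0.00997), over all stromal cells, with no low count filter and without Tom+ injured replicate 1. Aspn, a class I member that binds calcium and TGF-β, had a log2 fold change of 0.49 ± 0.20 (adjusted p = 0.150), with 555 and 617 CPM against 1050, 763, 729 and 844 CPM. Fmod, known from tendon and cartilage, spread from 1.27 to 46.4 CPM within steady state and from 39.2 to 70.5 CPM after injury, and Prelp, a basement membrane and cartilage protein, went from 595 and 900 CPM to 620, 403, 557 and 414 CPM. Neither passed the test (adjusted p = 0.468 and 0.222), and both overlapped between the states.

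**Figure D1:**
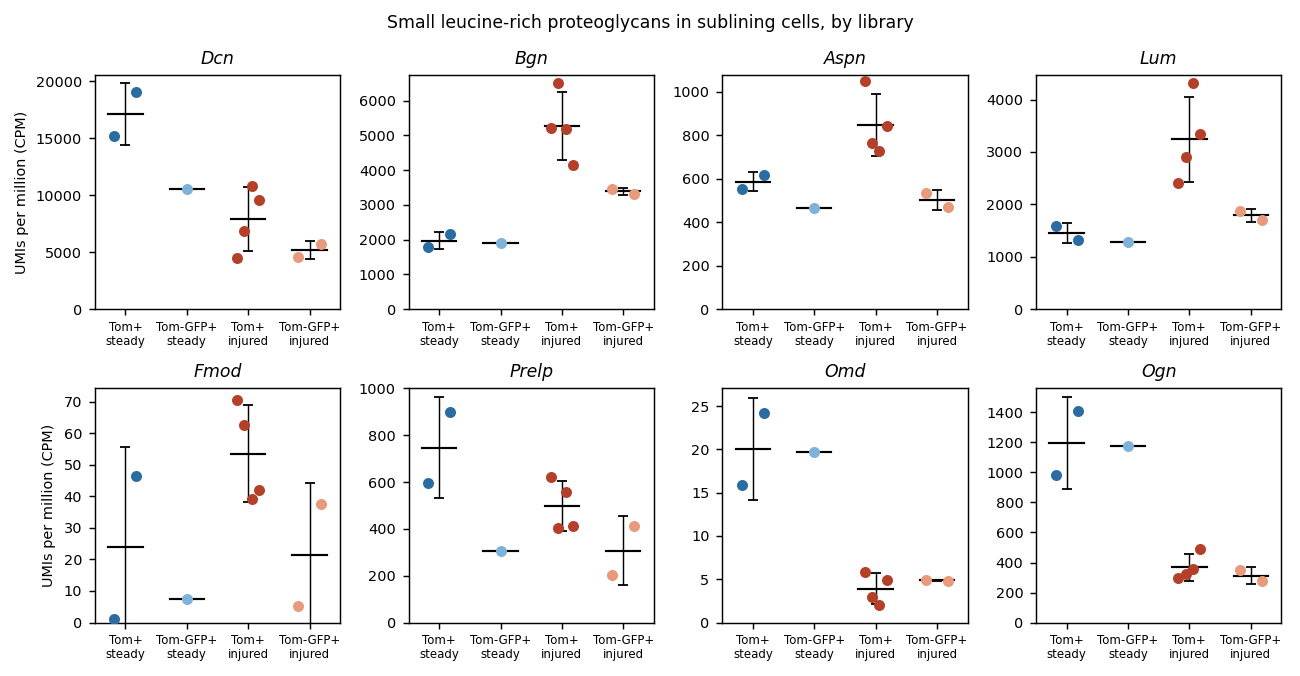
Levels of the 8 members in sublining cells, in CPM on linear axes that start at 0, with a point for each library, a bar at the group mean and whiskers of 1 SD where a group has more than 1 library (cut off at 0). The 4 Tom+ injured libraries lie above both Tom+ steady state libraries for Bgn, Lum and Aspn and below both for Dcn, Omd and Ogn. Aspn and Dcn did not pass the test.

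These calls leaned on the small steady-state group. Leaving out Tom+ steady state replicate 1 left 2 members past the threshold, and leaving out replicate 2 left 0 of 8, with Ogn at an adjusted p of 0.0553 and Bgn at 0.0753. Only Tom+ injured 1 joined the steady-state libraries in the older gene list format, so values with the format as a block rest on that single injured library for the change with injury. Marker genes of other classes also differed between the states in sublining sums. The 6 tenocyte-like gate genes summed to 22.8 to 71.1 CPM in the Tom+ steady state libraries and to 117 to 189 CPM in the Tom+ injured ones, with 1 and 0 of the 6 at 0, and the 8 osteoblast-like gate genes went from 41.8 to 93.8 CPM down to 5.60 to 19.2 CPM, with 2 and 0 of the 8 at 0. The 6 mural-like gate genes were at 1.97 to 3.17 CPM in steady state and 5.30 to 8.34 CPM after injury, with 2 and 0 of the 6 at 0. The 8 chondrocyte-like gate genes overlapped between the states, and the 6 immune-like gate genes stayed at or below 2.65 CPM in these libraries. The part of these genes in the members' differences was not tested.

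The members' shares of their own summed UMIs moved with the levels. UMIs tag a transcript once at its 5′ end, so shares are not corrected for transcript length, and only their change between libraries is read. In Tom+ steady state sublining cells Dcn gave 73.3% and 74.6% of the 8 members' UMIs and Bgn 8.66% and 8.44%. After injury Dcn gave 31.6%, 38.6%, 49.1% and 50.7%, and Bgn 36.9%, 36.5%, 23.6% and 22.0%. The mean difference was -31.5 percentage points for Dcn, 21.2 for Bgn, 11.3 for Lum and -3.10 for Ogn. Each had an exact two-sided permutation p of 0.133 (0.178 after adjustment over the 8 members), which is the smallest that 4 against 2 libraries can give, so the design could not reach 0.05.

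**Figure D2:**
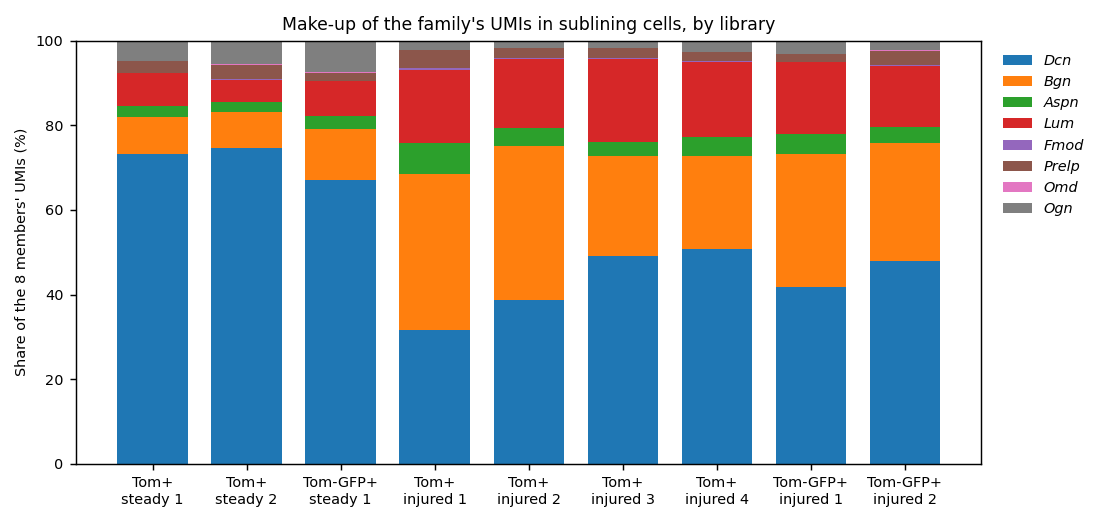
Stacked bars give the share of each member, in percent, of the 8 members' summed UMIs in sublining cells of each of the 9 libraries. Dcn falls from 67.1% or more in the 3 steady-state bars to 50.7% or less in the 6 injured bars, and Bgn goes from at most 12.1% to at least 22.0%.

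The same direction of values stood in the Tom-GFP+ lineage, in which only Ogn passed the test, against 1.93% of all genes. Ogn was at 1177 CPM in the steady-state library and at 351 and 274 CPM in the injured libraries (log2 change -1.93 ± 0.36, edgeR adjusted p = 0.0370). This rests on a single steady-state library, which the fit takes to vary like the other groups, and leaving out any 1 of 6 libraries, among them both Tom-GFP+ injured ones, ended the call. Dcn was at 10556 CPM against 4629 and 5725 CPM, Bgn at 1908 against 3457 and 3327 CPM, and Omd at 19.7 against 4.88 and 4.83 CPM. Their adjusted p were 0.268, 0.205 and 0.0756.

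Lineages were then set against each other directly. No member passed the test by lineage in injured sublining cells (edgeR, 0 of 8), where 0.0255% of all genes did. At an unadjusted p under 0.05 there were 3 members, against 634 of 11746 genes. In steady state the count was likewise 0 of 8, against 0.0511% of all genes. There 1 member had an unadjusted p under 0.05, against 599 of 11746 genes. DESeq2 also gave 0 members past the adjusted threshold in either state. The log2 difference of Tom+ over Tom-GFP+ in injured cells was 0.88 ± 0.27 for Lum, 0.77 ± 0.20 for Aspn and 0.65 ± 0.23 for Bgn, with adjusted p of 0.567, 0.381 and 0.713. For no member did the difference in the change with injury between the lineages pass in edgeR or DESeq2, and 0% of all genes passed. In edgeR 0 of 8 members had an unadjusted p under 0.05, against 231 of 11746 genes. The interaction was 0.56 ± 0.38 for Bgn, 0.67 ± 0.44 for Lum, -0.10 ± 0.60 for Dcn and 0.19 ± 0.46 for Ogn (SE) on the log2 scale.

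Counting cells in place of UMIs, every sublining cell but 1 had decorin after thinning each cell to 4000 UMIs, in 614 steady-state and 1037 injured cells. Ogn was found in 81.9% of thinned steady-state cells (95% exact binomial interval 78.6 to 84.9) and 57.2% of injured cells (54.1 to 60.2). The unthinned shares were 87.4% and 79.8%, at median depths of 8724 and 13502 UMIs. Bgn went from 84.7% to 99.6% of thinned cells and Omd from 8.96% to 2.31%. By library, the thinned Ogn share was 72.2%, 84.5% and 86.6% in the 3 steady-state libraries and 46.4% to 66.5% in the 6 injured ones, so the states did not overlap. In immune-like cells of the injured libraries, which should lack these genes, the unthinned shares were 55.3% for Dcn, 55.3% for Bgn, 35.0% for Lum and 1.94% for Ogn, at a median depth of 8432 UMIs, and intervals here cover counting error between cells only.

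FLS-like lining cells had a narrower set of members than sublining cells. Biglycan and decorin together made up nearly all of the family's UMIs there, and 6 of the 8 members were lower than in sublining cells of the same libraries, against 19.3% of all genes lower and 36% changed in either direction. The median log2 difference of the 8 members was -3.39, against -0.01 for all genes tested. The fit held 40 sums of class and library with at least 10 cells each, with the library as a block.

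Ogn was at 5.45 to 46.6 CPM in the 8 FLS-like sums and at 274 to 1412 CPM in the 9 sublining sums. The log2 difference was -5.22 ± 0.33 (edgeR adjusted p = 6.29e-15). Aspn lay at 8.88 to 69.1 CPM in FLS-like cells, with a difference of -4.77 ± 0.36 (adjusted p = 4.17e-13), and Lum at 27.9 to 380 CPM, with a difference of -3.77 ± 0.43 (adjusted p = 7.28e-09). For these 3 members the FLS-like and sublining ranges did not overlap, nor did those of Prelp (12.7 to 162 against 203 to 900 CPM). The share of all genes without overlap was not counted here either. Prelp (-3.40 ± 0.41) and Omd (-3.39 ± 0.95) were lower as well. Bgn differed least, by -0.42 ± 0.15 (adjusted p = 0.0215), and its sign turned to 0.38 in the steady-state libraries alone. Dcn was at -0.89 ± 0.37 (adjusted p = 0.0606), and in the steady-state libraries alone it passed at -2.48 (adjusted p = 1.50e-07). It also passed under other settings, among them DESeq2 (-0.94, adjusted p = 0.0461) and at least 20 cells per sum (-0.90, adjusted p = 0.0142).

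**Figure D3:**
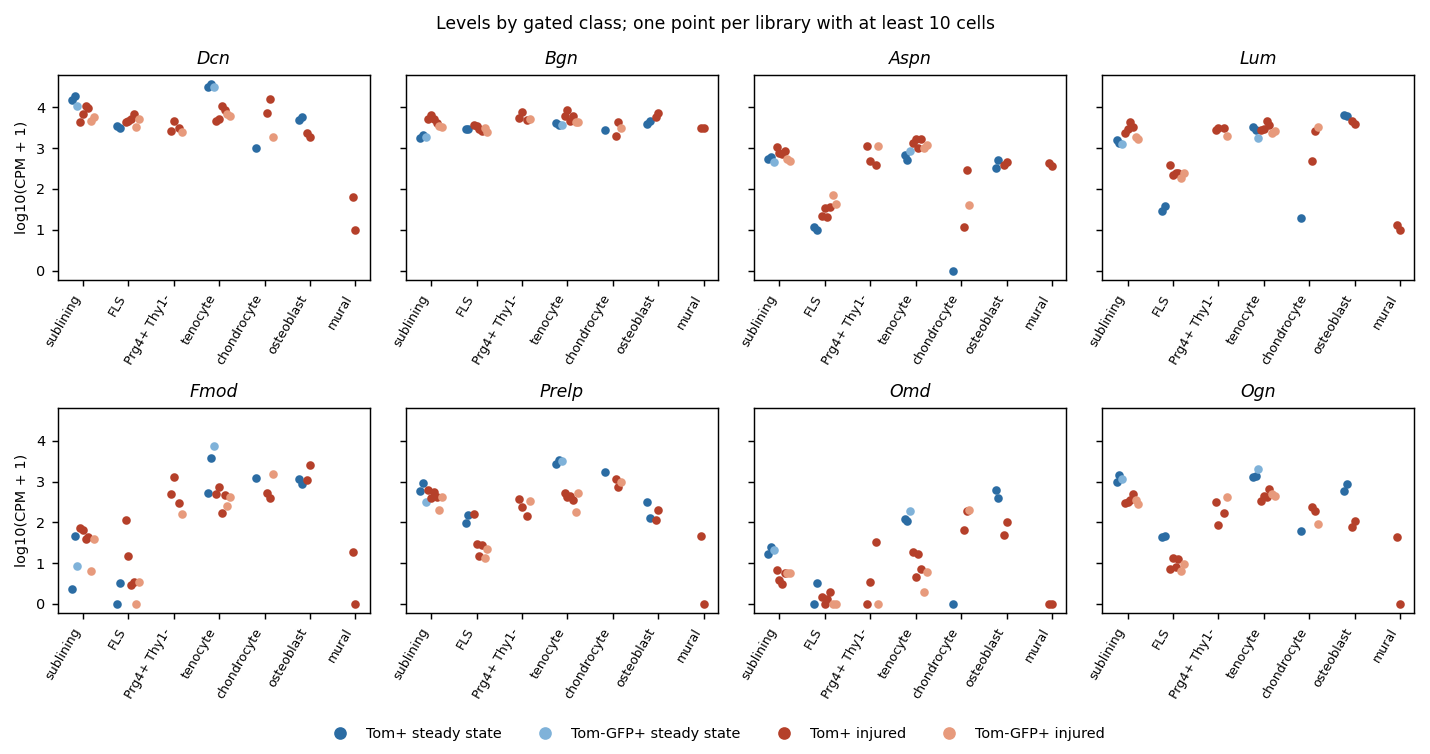
Levels of the 8 members by gated class, as log10(CPM + 1), with a point for each library with at least 10 cells of that class, coloured by group. FLS-like points lie lowest or near lowest for Aspn, Lum, Prelp, Omd and Ogn, while Bgn keeps a narrow range from 1797 to 8425 CPM across all classes shown.

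Lumican rose in FLS-like cells of the Tom+ lineage after injury. It was at 27.9 and 37.8 CPM in the steady-state libraries, from 20 and 31 cells, and at 380, 222, 251 and 244 CPM in the injured ones, and the groups did not overlap. The log2 fold change was 3.07 ± 0.32 (edgeR adjusted p = 0.00101), and 2 of the 7 members tested passed against 4.09% of all genes. Steady-state Lum was near the immune-like level in steady state, which was 1 UMI in 6 cells, and injured Lum stood above the immune-like 46.9 CPM. Ogn went from 41.8 and 46.6 CPM to 6.22, 12.4, 7.19 and 11.5 CPM (log2 change -2.18 ± 0.38, adjusted p = 0.0130), a call lost without either steady-state library (adjusted p = 0.0781 and 0.127) and under stricter gates (log2 change -0.79).

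The Lum call depended on how the cells were gated. The looser gates took 2 of 5 lining markers in place of 3. The chondrocyte-like, osteoblast-like and mural-like gates were loosened from 3 markers to 2 at the same time. Steady-state Lum was then 861 and 497 CPM, against 452 to 591 CPM after injury. The log2 difference turned to -0.39 (edgeR adjusted p = 0.401). Under the looser gates the sublining marker Thy1 was at 114 and 52.4 CPM in the 2 steady-state libraries, compared with 10.5 and 2.22 CPM under the main gate. In the main gate the 6 tenocyte-like gate genes also summed to more in steady state (376 and 640 CPM) than after injury (25.0 to 91.2 CPM), with 3 and 1 of the 6 at 0. The 8 osteoblast-like gate genes went from 48.8 and 73.3 CPM to 3.27 to 12.5 CPM, with 5 and 3 of the 8 at 0, and the 6 mural-like gate genes from 296 and 298 CPM to 119 to 182 CPM, with 2 and 1 of the 6 at 0. The part of these genes in the Lum and Ogn values of FLS-like cells was not tested. Bgn was at 2923 and 2994 CPM against 3661, 3548, 2923 and 2607 CPM (log2 change 0.15 ± 0.17, adjusted p = 0.672), and Dcn went from 3408 and 3161 CPM to 4259, 4734, 5263 and 6996 CPM without passing (0.75 ± 0.25, adjusted p = 0.118). Omd fell under the low count filter, with 5 UMIs in all FLS-like cells.

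Fibromodulin was higher in the skeletal classes and in Prg4+ Thy1- cells than in sublining cells. It was 40.6 CPM at the median of the 6 injured sublining sums and 447.7 CPM in tenocyte-like cells, 516.7 CPM in chondrocyte-like cells and 399 CPM in Prg4+ Thy1- cells of injured libraries with at least 10 cells. Against sublining cells the log2 difference was 5.26 ± 0.80 in chondrocyte-like, 4.84 ± 0.81 in osteoblast-like, 4.68 ± 0.67 in tenocyte-like and 3.67 ± 0.81 in Prg4+ Thy1- cells. All 4 passed in edgeR (adjusted p = 5.72e-06, 4.15e-05, 7.10e-06 and 0.00625).

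In tenocyte-like cells, 3 of 8 members were higher than in sublining cells, against 3.47% of all genes higher and 8.92% changed. Beside Fmod these were Omd (1.93 ± 0.44, adjusted p = 0.00313) and Bgn (0.48 ± 0.14, adjusted p = 0.0231), which was lost in 6 of 22 alternatives. Omd was lost in 2 of them, under DESeq2 (adjusted p = 0.0980) and in injured libraries alone (1.04, adjusted p = 0.245). Bgn was also lost in injured libraries alone (0.27, edgeR adjusted p = 0.343). In steady-state libraries alone Prelp (2.48), Dcn (1.21) and Lum (0.83) passed as higher too (edgeR adjusted p = 4.27e-05, 4.42e-05 and 0.00181). The set of higher members thus differed between the states. In Prg4+ Thy1- cells Fmod was the only member past the threshold, against 3.08% of all genes, and requiring at least 20 cells for a sum, or leaving out Tom+ injured replicate 2, left 0 members. That class entered with 4 libraries, of 10 to 38 cells each.

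Chondrocyte-like cells had higher Fmod, Prelp (1.47 ± 0.46) and Omd (3.85 ± 0.75), and lower Aspn (-3.15 ± 0.51) and Ogn (-1.91 ± 0.43), so that 5 of 8 members changed, against 20.8% of all genes. Only 4 libraries held at least 10 such cells, and Omd turned to -6.69 in steady state, where a single library held enough cells. Looser gates left 1 member. That setting loosened the gates of other classes too and dropped the Thy1 requirement from the sublining cells compared. Osteoblast-like cells had 6 of 8 members changed, against 12.9% of all genes. Osteomodulin, named for bone, was at 610 and 394 CPM in the 2 steady-state libraries, and its log2 difference from sublining cells was 4.59 ± 0.53 (adjusted p = 8.74e-08). Lum was higher by 1.44 ± 0.48, at 6467 and 6156 CPM in steady state, and Dcn (-1.55 ± 0.50), Prelp (-1.99 ± 0.56) and Ogn (-1.07 ± 0.36) were lower. The Fmod and Omd calls stood in each of the 21 alternatives, while those of Lum, Dcn, Prelp and Ogn were lost in 8, 10, 5 and 13 of them.

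In mural-like cells 5 of 8 members were lower, against 8.56% of all genes lower and 16.3% changed, from 2 injured Tom+ libraries with 39 and 23 cells. Lum was at 12.2 and 8.89 CPM and Dcn at 60.8 and 8.89 CPM, at or below the immune-like levels of 46.9 and 121.6 CPM, so neither was read as expression in these 2 libraries. The immune-like levels pool 103 cells of all injured libraries, of which only 3 and 7 came from the same libraries, Tom+ injured 1 and 2. Over all 76 injured mural-like cells, with libraries too small for a sum, Dcn was at 383 CPM. Bgn was among the 5 called lower (-0.88 ± 0.26, edgeR adjusted p = 0.0157), a call lost in 3 of 20 alternatives. In the 2 libraries it still stood at 3154 and 3066 CPM, and Aspn at 426 and 369 CPM, above the immune-like 99.2 and 8.53 CPM.

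**Figure D4:**
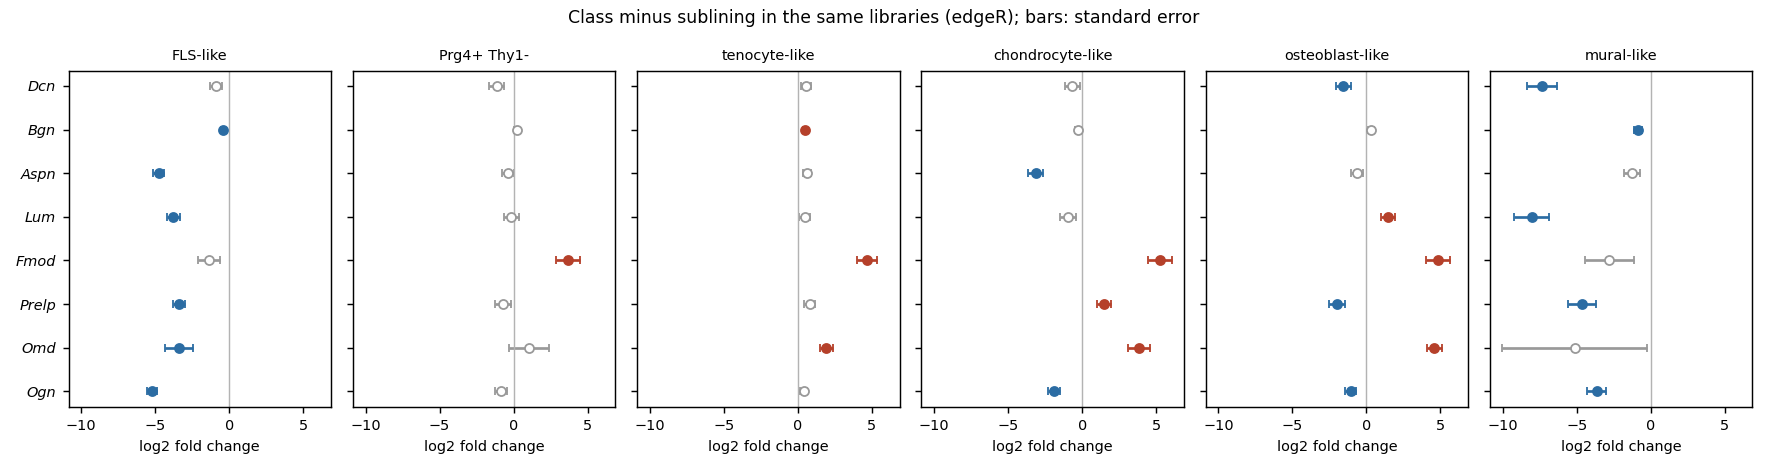
Log2 fold changes of each gated class over sublining cells from edgeR with the library as a block, with standard errors as bars. Filled points passed an adjusted p of 0.05, red for higher and blue for lower. Fmod is the member higher in each of the Prg4+ Thy1-, tenocyte-like, chondrocyte-like and osteoblast-like panels.

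Injury in the tenocyte-like gate went with lower decorin, PRELP, osteomodulin and osteoglycin and with higher asporin in Tom+ cells. Of the 8 members, 5 passed, against 6.69% of all genes. Prelp was at 2758 and 3451 CPM in steady state and at 517, 423, 438 and 351 CPM after injury, without overlap. Its log2 change was -2.88 ± 0.33 (edgeR adjusted p = 0.00125), and it kept its call in all 21 alternatives. Dcn went from 31482 and 37662 CPM to 4672, 5244, 10734 and 8795 CPM (-2.26 ± 0.32, adjusted p = 0.00364), and Omd from 117 and 106 CPM to 17.5, 3.63, 15.4 and 6.05 CPM (-3.25 ± 0.50, adjusted p = 0.00599). Ogn changed by -1.58 ± 0.26, and Aspn rose by 1.26 ± 0.27, from 673 and 497 CPM to 1315, 1676, 1002 and 1686 CPM.

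The make-up of this gate was not the same in both states. The Tom+ libraries held 14 and 50 such cells in steady state and 216, 88, 38 and 37 after injury. Tenomodulin (Tnmd), a tendon marker of the gate, was at 388 and 306 CPM in steady state and 96.8, 123, 193 and 278 CPM after injury. Scx, another marker of the gate, did not fall with it, at 124 and 74.8 CPM in steady state and 190, 126, 78.7 and 103 CPM after injury. Median depth in the gate, over both lineages, was 8283 UMIs in steady state and 17923 UMIs after injury. With gates on cells thinned to 4000 UMIs the Dcn call was lost (log2 change -1.73). Stricter gates ended the calls of Aspn (1.62), Omd (-1.53) and Ogn (-1.40), while Fmod was at -2.56 there. With a Tnmd UMI required of every cell, an alternative added after seeing the data, Tom+ steady state 1 kept 4 cells and Tom+ injured 3 kept 7, too few for a sum. The fit then took the lone Tom+ steady-state library to vary like the other groups, and Omd (-1.90) and Ogn (-1.08) no longer passed (adjusted p = 0.315 and 0.221). Fmod was at -2.26 ± 0.63 in the gate as written (adjusted p = 0.0577), at -3.08 when Tom+ steady state replicate 1 alone was left out (adjusted p = 0.0295) and at -3.23 under the Tnmd requirement (adjusted p = 0.00251), which changes both the cells and the libraries. Fmod ran from 519 to 3750 CPM between the 2 Tom+ steady state libraries and stood at 7583 CPM in the Tom-GFP+ one. Leaving out Tom+ steady state replicate 2 left 1 of the 5 calls, that of Prelp.

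Among osteoblast-like cells of the Tom+ lineage, Ogn alone passed, against 0.933% of all genes. It was at 583 and 877 CPM in steady state and at 77.3 and 110 CPM in the 2 injured libraries with at least 10 such cells (log2 change -2.85 ± 0.37, edgeR adjusted p = 0.0298). Without Tom+ steady state replicate 2, which left 1 library in that group, the Ogn call was lost (log2 change -2.50). Without Tom+ injured replicate 1 the fit rested on a single injured library of 24 cells. There Omd changed by -2.17, Dcn by -1.35, Fmod by 1.47 and Bgn by 0.91 on the log2 scale. Calls of that fit are not read as results, though they enter the range of counts with 1 library left out given at the end. Omd was at 610 and 394 CPM against 48.3 and 99.0 CPM (-2.56 ± 0.44, adjusted p = 0.0656). Ogn is thus the member that passed as lower after injury in each of the 4 classes fitted for the Tom+ lineage, comparisons that draw on the same libraries. Among the alternatives, the Ogn call was lost in 1 of 23 for sublining and 3 of 20 for FLS-like cells. For tenocyte-like cells it was lost in 3 of 21, and for osteoblast-like cells in 3 of 14.

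**Figure D5:**
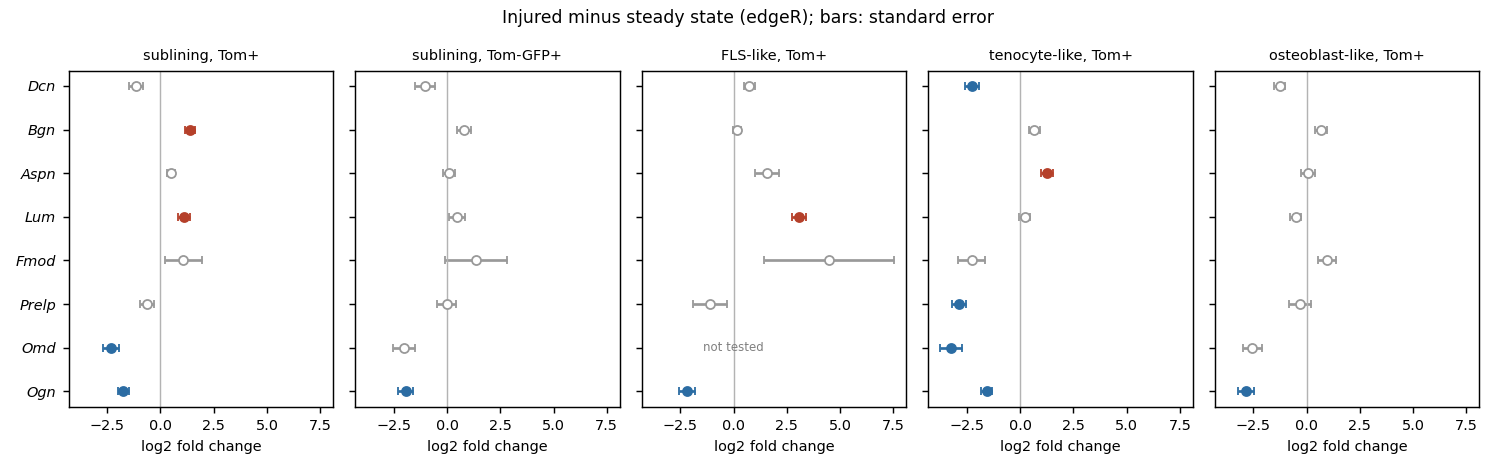
Log2 fold changes after injury for each member from edgeR, by class and lineage, with standard errors as bars and filled points for an adjusted p under 0.05. Ogn is filled and negative in all 5 panels, from -1.58 to -2.85, while Bgn is filled in the sublining Tom+ panel only, a contrast between panels that was not tested.

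Within injured joints, cells that had both Lrrc15 and Adam12, genes linked to activated fibroblasts, had a different mix of members from sublining cells with neither. These cells numbered 451 and were absent from the gate in steady state. They lay outside the FLS-like, skeletal, mural-like, immune-like and endothelial-like gates. Unlike the sublining cells, they were not required to have Thy1 and Cd34. In the fit over 6 injured libraries Fmod was higher (log2 difference 2.27 ± 0.49, edgeR adjusted p = 0.00663). Dcn (-1.05 ± 0.14, adjusted p = 0.000343) and Ogn (-0.91 ± 0.17, adjusted p = 0.00280) were lower, which made 3 of the 7 members tested against 21.9% of all genes. Dcn was at 3456, 4895, 6316 and 8114 CPM in these cells of the Tom+ libraries, against 8027, 7990, 12949 and 10657 CPM in the cells with neither. In each library Dcn was lower in the Lrrc15+ Adam12+ cells. Fmod went the other way in Tom+ injured 3, at 0.0940% of the members' UMIs in those cells and 0.169% in the cells with neither. Its share was higher in the Lrrc15+ Adam12+ cells of every other library. In the cells with neither it was 0.0136% of 7361 member UMIs in Tom+ injured 1 and 0.00776% of 12891 in Tom-GFP+ injured 1. The Fmod call was lost with looser gates (1.04, edgeR adjusted p = 0.177). Bgn differed by 0.10 ± 0.10 and Lum by 0.13 ± 0.11 (adjusted p = 0.531 and 0.445). Aspn, at 0.57 ± 0.19, narrowly missed the threshold (edgeR adjusted p = 0.0509). It passed as higher under other settings, among them DESeq2 (0.59, adjusted p = 0.0416) and stricter gates (0.68, edgeR adjusted p = 0.0193).

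Sublining cells with at least 3 of Dpp4, Pi16, Sema3c, Anxa3, Efhd1 and Limch1, genes known from adventitial fibroblasts, were set against sublining cells with at most 1 of them in all 9 libraries. Of 6 members tested 3 passed, against 14.9% of all genes. Bgn (-0.52 ± 0.08, edgeR adjusted p = 0.000215) and Lum (-0.79 ± 0.16, adjusted p = 0.00213) were lower in the former and Prelp was higher (0.55 ± 0.14, adjusted p = 0.0103). Bgn lay at 1422, 1800 and 1457 CPM in these cells of the 3 steady-state libraries and at 2104, 2540 and 2593 CPM in the others. The Bgn and Lum calls held in each of the 21 alternatives, and the Prelp call was lost in 2.

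Cycling cells outside the FLS-like, skeletal, mural-like, immune-like and endothelial-like gates had lower levels of every member tested. Cycling cells inside those gates were not read. Of the cells outside them, 168 had at least 2 of 6 cell cycle genes. They were compared with cells with none, also outside those gates, in the 4 injured libraries that held at least 10 of each. There 7 of 7 members were lower, against 10.8% of all genes lower and 21.8% changed. Ogn was at 105, 79.1, 233 and 178 CPM in cycling cells of Tom+ injured 1, 2 and 3 and Tom-GFP+ injured 1, and at 352, 295, 339 and 428 CPM in the non-cycling cells of those libraries. Its log2 difference was -1.39 ± 0.17 (edgeR adjusted p = 0.000107), and Dcn differed by -1.15 ± 0.11 (adjusted p = 1.26e-05). The count of calls fell to 3 when the 5% of cells with the most UMIs were left out.

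Genes that act with the family were read in the same fits. The 5 fibril-forming collagens listed, the scaffold that the members bind, all rose in Tom+ sublining cells after injury, with log2 changes from 1.47 for Col5a1 to 2.22 for Col1a1 (adjusted p = 0.0121 and 0.00174), and their median was 1.67 against -0.03 for all genes. In that comparison 3.52% of all genes were called higher and 6.11% lower. Of 20 genes of chondroitin and dermatan sulfate synthesis tested, 4 rose (Chsy1 by 1.60 ± 0.30, Csgalnact1 by 1.72 ± 0.33, Dsel by 1.02 ± 0.24 and Chst11 by 1.10 ± 0.28) and 0 fell, with a list median of 0.21, and of 7 genes of keratan sulfate synthesis 0 passed, with a median of -0.32. Among 6 genes that process procollagens or proteoglycans, 1 fell, Pcolce2, an enhancer of procollagen C-proteinase (-2.74 ± 0.33, adjusted p = 0.00276), while the median of the 6 was 0.27. Of 7 other small leucine-rich proteins tested, 1 fell, Ecm2 (-1.79 ± 0.29, adjusted p = 0.00741), which lies beside Aspn on chromosome 13, and their median was -0.69. Signalling partners gave 2 lower genes of 11, Bmp4 (-2.01 ± 0.32) and Bmp2 (-2.71 ± 0.47), ligands of the bone morphogenetic protein family, with a list median of -0.41.

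In FLS-like cells of the Tom+ lineage 4 of the 5 collagens rose after injury, led by Col3a1 (2.30 ± 0.26, edgeR adjusted p = 0.00223). Of all genes 1.48% were called higher and 2.61% lower. Of 6 genes that process procollagens or proteoglycans, 1 was called higher and 1 lower, and Pcolce2 fell by 3.30 on the log2 scale. Against sublining cells, FLS-like cells had all 5 collagens lower and 6 of 7 other small leucine-rich proteins lower, against the 19.3% of all genes, among them Podn (-2.91 ± 0.28) and Kera (-5.22 ± 0.73), the cornea and tendon protein keratocan. Chst2, a sulfotransferase of keratan sulfate, was higher in them by 3.37 ± 0.18 (edgeR adjusted p = 2.89e-16). Of 7 genes of keratan sulfate synthesis tested there, 2 were higher and 1 lower, against 16.7% and 19.3% of all genes. In tenocyte-like cells Kera (3.06 ± 0.35) and Chad (6.43 ± 0.78) were higher than in sublining cells, and in chondrocyte-like cells Chad was higher by 10.13 ± 0.94. Of 7 other small leucine-rich proteins tested, 3 were higher and 1 lower in tenocyte-like cells, against 3.47% and 5.45% of all genes. In chondrocyte-like cells 4 were higher and 1 lower, against 8.55% and 12.3% of all genes.

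The genes most like each member, by Pearson correlation of log2(CPM + 1) over the 40 class by library sums after centring within libraries, differed between members. These sums share libraries and depth, and the correlations are given as a description among 9676 genes. Lum was closest to Olfml3 (0.97), Nfix (0.92) and Itgbl1 (0.89), and Aspn to Tmsb10 (0.93), Antxr1 (0.91) and Col1a2 (0.89). Prelp was closest to Fxyd6 (0.93), Emb (0.85) and Itm2a (0.85), and Ogn to Emb (0.89), Itm2a (0.89) and Itga11 (0.88). Fmod followed 1500015O10Rik (0.91), Edil3 (0.91) and Camk4 (0.86). Dcn had Lbp (0.86), Pdpn (0.85) and Dab2 (0.85), Bgn had Fat4 (0.84), Tnn (0.83) and Col8a2 (0.81), and Omd had Cd200 (0.85), Slc40a1 (0.84) and Cst3 (0.84). Among the members themselves the closest were Lum and Ogn (0.82) and Prelp and Ogn (0.80), and the least alike were Dcn and Omd (0.30).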

How the data were processed

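Knee cells sorted as Tom+ or Tom-GFP+ were profiled with the 10x Genomics 5′ kit, version 2. The submitters' processing notes name Cell Ranger (3.0.2 in the matrix headers of the 5 newer libraries) and GRCm38.p6, and the authors deposited raw UMI counts per gene and cell. Kept cells had a minimum of 500 genes and 1000 UMIs, with no more than 10% of UMIs mitochondrial, and were classed by marker gates that held no member. No doublet caller was run, and the 144 cells that passed more than 1 gate took no class. UMIs were summed per library and class with at least 10 cells and tested with edgeR 4.0.16 in R 4.3.3 (quasi-likelihood, TMM, filterByExpr, Benjamini-Hochberg over all genes tested, threshold 0.05), after the code was tested on simulated data. Groups followed the sample labels. By the study's text each library is from 1 mouse and the Tom-GFP+ mice are matched to Tom+ mice, but not which to which, so libraries were taken as independent. Alternatives were DESeq2 1.42.0, other scalings, filters, gates, blocks and each library left out. The 8 members were read in every comparison where they passed the low count filter, and the text names all or some of them. It also names the 3 genes most like each member and some partners from the lists. The members, lists and gates were chosen with earlier results of these data known. In class sums, fewer cells that express a gene and less RNA per cell cannot be told apart.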

Additional observations from a re-analysis of the deposited data

Results flagged for a closer look

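Of 72 sets of 4 Tom+ injured libraries examined for a library far from the other 3, 6 stood out, where chance gives about 1 in 20. In FLS-like cells Tom+ injured 1 had Fmod at 113 CPM (others 1.96 to 14.2 CPM) and Prelp at 162 CPM (others 14.4 to 28.7 CPM). In sublining cells with neither Lrrc15 nor Adam12 the same library had Omd at 24.4 CPM (others 2.14 to 4.84 CPM), from 32 cells. It also had Fmod at 63.6 CPM in sublining cells with at least 3 adventitial markers (others 1.39 to 8.75 CPM) and Aspn at 1202 CPM in non-cycling cells (others 723 to 749 CPM). Tom+ injured 2 had the lowest Aspn in the cells with adventitial markers, at 636 CPM (others 942 to 991 CPM). Tom+ injured 1 is also the injured library with the older gene list format and the highest median depth, 18567 UMIs per cell, and the part of either in these values was not tested.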

How the results depend on the processing

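Of the 131 member values, 52 passed the threshold, 21 of these passed in every alternative run, and 3 of the 52 changed sign in at least 1. A sign change is counted as a reversal only where either value passed or both exceeded their standard errors, which left 9. In FLS-like cells after injury Dcn (-0.64), Lum (-0.39) and Fmod (-2.23) turned with looser gates, and Prelp turned to 0.40 with the gene list format as a block and to 0.41 within the older format, with 1 injured library, an alternative chosen after seeing the data, as was the Tnmd requirement. In steady-state libraries alone Bgn turned to 0.38 in FLS-like and 0.59 in chondrocyte-like cells, and Omd to -6.69 in chondrocyte-like cells. The steady-state lineage difference of Fmod ranged from -2.47 to 2.65 with 1 library left out. The cause of these changes was not tested. Counts of members past the threshold moved as follows. The share of all genes called under each setting is not set beside them or beside the ranges with 1 library left out. A change in these counts is therefore not read as particular to the members. Tom-GFP+ sublining after injury (1) had 3 with no low count filter, 2 with looser gates or the format as a block, and 0 with stricter gates, thinned gates or without Lrrc15 and Adam12 UMIs. The lineage counts (0 in either state) were 1 with no filter. FLS-like after injury (2) had 6 with no filter and 1 with stricter or looser gates. Osteoblast-like after injury (1) had 2 with library size only, DESeq2, looser gates or the format as a block, 3 with no filter and 0 with thinned gates, and tenocyte-like after injury (5) had 3 with stricter gates. Against sublining cells, Prg4+ Thy1- (1) had 4 with no filter, 2 with stricter gates or injured libraries alone, 3 with thinned gates and 0 with at least 20 cells. Tenocyte-like (3) had 7 with no filter, 5 with thinned gates, 6 in steady state alone and 1 in injured alone. Chondrocyte-like (5) had 1 with looser gates, and osteoblast-like (6) had 2 with stricter and 3 with thinned gates. Lrrc15+ Adam12+ cells (3) had 5 with no filter, and cycling cells (7) had 3 without the 5% of cells with the most UMIs. In the counts that follow, a group of 2 libraries keeps a single one once 1 is left out, as in both groups of the osteoblast-like fit.

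With 1 library left out the counts ranged from 0 to 5 for Tom+ sublining, 0 to 2 for Tom-GFP+ sublining, 1 to 3 for FLS-like, 0 to 5 for osteoblast-like and 1 to 5 for tenocyte-like cells after injury. They ranged from 0 to 2 for Prg4+ Thy1-, 2 to 3 for tenocyte-like, 5 to 6 for chondrocyte-like, 3 to 6 for osteoblast-like, 5 to 8 for FLS-like and 4 to 6 for mural-like cells against sublining, 3 to 4 for Lrrc15+ Adam12+ and 6 to 8 for cycling cells.

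Replicate numbers were not taken to pair the samples, as the sources used here do not tie numbers to matched mice. Deviations from the group mean of same-numbered Tom+ steady state and injured libraries had correlations of -0.03 and 0.07. Those of same-numbered injured Tom+ and Tom-GFP+ libraries had 0.31 and 0.21, from 2 pairs. The deviations in a group of 2 libraries mirror each other, so the 2 values of each set are not separate checks and cannot decide whether the numbers pair. With the replicate number as a block the counts of members were 4 in Tom+ sublining (Lum lost, Dcn gained), 2 in FLS-like, 5 in tenocyte-like and 0 in osteoblast-like cells after injury, and 0 for lineage in injured cells.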
